A study of Homo sapiens with 4 samples.

Results

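The genes described are 10 genes of the endoplasmic reticulum (ER) unfolded protein response, out of 42113 gene models in the files. They were chosen by symbol (HSPA5, HSP90B1, CALR, PDIA4, HYOU1, SDF2L1, DNAJB9, DNAJC3, HERPUD1 and XBP1), and each symbol matched 1 row in all 4 files. The samples were A549 cells, an established human lung cancer line, stably infected with lentivirus that carried a short hairpin RNA (shRNA). The 4 groups, of 1 library each, were LIMA1 shRNA cells with nutlin-3a at 10 µM, control shRNA cells with nutlin-3a at 10 µM, untreated LIMA1 shRNA cells, and untreated control shRNA cells, which carried a negative control hairpin. RNA was taken at 24 h. LIMA1 encodes EPLIN, an actin-binding LIM-domain protein, and nutlin-3a keeps MDM2 from binding p53 and so stabilises p53. The sample titles write "si" before the target, whereas the protocols describe stable shRNA, and the names used here follow the protocols. Whether the infected cells were a pool or a clone is not stated in the sources used here.

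Unfolded proteins in the ER lumen activate membrane sensors, of which IRE1, ATF6 and PERK are the main ones in mammals. IRE1 (encoded by ERN1) splices XBP1 mRNA to give an active transcription factor, ATF6 is cut in the Golgi to release another, and PERK (EIF2AK3) slows translation and raises the transcription factor ATF4. ATF6 and spliced XBP1 raise the chaperones and degradation factors of the ER, whereas ATF4 raises genes of amino acid supply, redox balance and cell death. The question set for the 10 genes was whether this chaperone arm moves with LIMA1 knockdown in untreated cells.

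The promoters are shown first, because 7 of the 10 genes hold one of a pair of related sequence elements. The genes were chosen by symbol, but both elements are known from ER stress genes such as these. Their share among the 10 genes is therefore no independent finding. RefSeq windows on GRCh38.p14, from 250 bases before to 50 after a transcript start, were matched by symbol for 10 of 10 genes and searched on both strands. ERSE (CCAAT, any 9 bases, then CCACG) is the ER stress response element known to bind ATF6 together with the CCAAT factor NF-Y, and ERSE-II (ATTGG, any base, then CCACG) is a related element found in HERPUD1. An exact ERSE stood in the windows of 4 genes (HSPA5, HSP90B1, CALR and XBP1) and an exact ERSE-II in those of 3 more (HYOU1, SDF2L1 and HERPUD1), so 7 of 10 held one or the other. Of all 35116 windows, 0.0769% held ERSE and 0.0541% held ERSE-II, and of the 27305 genes with a window 0.161% held either. Both elements contain the pentamers CCAAT and CCACG, which alone were common, at 34.6% and 38.1% of all windows. No exact match was found for PDIA4, DNAJB9 and DNAJC3, which says only that these letters are not in those windows.

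The ERSE stretches, with the fixed letters of each match in capitals and read 5′ to 3′ on the gene's strand, are from chr9:125241371-125241429 (minus strand), chr12:103930196-103930359 (plus), chr19:12938364-12938422 (plus) and chr22:28800583-28800641 (minus) of GRCh38.p14.
HSPA5: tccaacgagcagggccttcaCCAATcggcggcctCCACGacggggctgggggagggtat
HSP90B1: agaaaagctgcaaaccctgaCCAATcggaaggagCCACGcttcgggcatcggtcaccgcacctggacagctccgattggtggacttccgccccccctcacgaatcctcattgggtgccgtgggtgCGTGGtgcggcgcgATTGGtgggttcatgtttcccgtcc
CALR: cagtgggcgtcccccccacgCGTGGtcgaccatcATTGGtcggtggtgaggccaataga
XBP1: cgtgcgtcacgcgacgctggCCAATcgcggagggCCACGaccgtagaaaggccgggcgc
In HSPA5 and XBP1 the element runs forward and ends 48 and 34 bases before the start. HSP90B1 holds a forward and a reverse copy, and CALR a reverse one, in which the letters appear as their reverse complement.

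The ERSE-II stretches, marked in the same way, are from chr11:119057254-119057410 (minus strand), chr22:21642094-21642144 (plus) and chr16:56931946-56932055 (plus) of GRCh38.p14.
HYOU1: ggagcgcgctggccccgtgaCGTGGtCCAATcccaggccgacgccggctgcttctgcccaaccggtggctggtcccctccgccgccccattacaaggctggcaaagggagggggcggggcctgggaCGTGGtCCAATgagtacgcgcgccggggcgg
SDF2L1: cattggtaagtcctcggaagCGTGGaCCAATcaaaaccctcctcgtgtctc
HERPUD1: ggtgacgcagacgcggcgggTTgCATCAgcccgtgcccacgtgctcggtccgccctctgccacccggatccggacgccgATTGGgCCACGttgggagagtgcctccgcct
HYOU1 holds 2 reverse copies, the farther of which overlaps a match to UPRE (TGACGTG), the core of the element known to bind spliced XBP1. UPRE stood in 1.97% of all windows and, among the 10 genes, in HYOU1 alone. In HERPUD1 the capitals at the left mark a reverse match to CARE (TGATGNAA), the core of the element known to bind ATF4 with C/EBP factors. CARE stood in 3.62% of all windows and, among the 10 genes, in HERPUD1 alone. The DNAJB9 stretch, chr7:108569780-108569867 (plus strand), is shown because DNAJB9 moved most, and its capitals mark the separate pentamers only.
DNAJB9: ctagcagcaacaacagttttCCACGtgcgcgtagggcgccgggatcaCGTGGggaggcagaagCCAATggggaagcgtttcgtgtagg

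**Figure D1:**
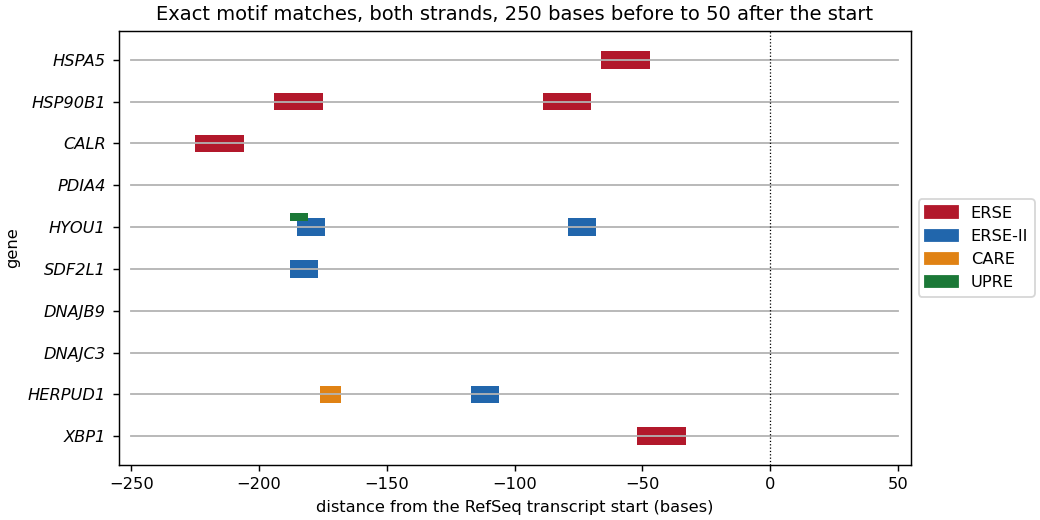
Exact matches to ERSE, ERSE-II, CARE and UPRE on both strands, drawn by distance in bases from the RefSeq transcript start for the 10 genes (XBP1 and PDIA4 have a second RefSeq start, not drawn). Coloured boxes stand for matches; 7 of the 10 rows carry an ERSE or ERSE-II box, and PDIA4, DNAJB9 and DNAJC3 carry none.

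All levels are the deposited normalized fragment counts. A difference is between log2(normalized count + 1) values. With 1 library a group there were no replicates and no test, so every difference compares libraries. The counting intervals given are exact 95% Clopper-Pearson intervals that cover counting error only, except that those of a difference between responses are normal approximations. Libraries held 15.2 to 16.7 M fragments. LIMA1 stood at 133 normalized counts in LIMA1 shRNA cells and 866 in control shRNA cells with nutlin-3a, and at 68.3 in untreated LIMA1 shRNA cells and 416 in untreated control shRNA cells, so both libraries labelled as knockdown had less of it than their controls. CDKN1A, the p53 target that encodes p21, was at 48106 normalized counts with nutlin-3a against 1178 without in LIMA1 shRNA cells, and at 34078 against 1066 in control shRNA cells. All 8 markers listed for A549 cells were measured, with a summed level of 399187 to 548510 normalized counts. ALDH1A1 alone held 193575 to 287908 of these, whereas EPCAM was low, at 31.1 to 229. The difference of EPCAM, LIMA1 shRNA minus control shRNA, was -1.47 untreated and -1.81 with nutlin-3a, and that of KRT19 was 0.69 and 0.77. Of the 8 markers, 3 lay above 0 and 5 below untreated, and 4 above and 4 below with nutlin-3a. Sums were 65.4 to 106 for 4 leukocyte, 3.22 to 12.9 for 3 endothelial and 30.02 to 130.1 for 5 fibroblast markers, with CD3E and COL1A2 at 0 in every library.

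All 10 genes passed the filter for measured genes, a mean of at least 30 normalized counts, as did 12742 gene models in all. Their means ran from 429 for SDF2L1 to 24760.4 for HSP90B1, which ranked 47 of the 12742. Together they took 0.427% of the normalized counts in LIMA1 shRNA cells with nutlin-3a, 0.395% in control shRNA cells with nutlin-3a, 0.475% in untreated LIMA1 shRNA cells and 0.465% in untreated control shRNA cells. All values of the 10 genes lay within 0.11 of a whole number of fragments. Per kb of the longest coding transcript (GENCODE 29), HSP90B1 was highest in untreated cells, at 10201 normalized counts per kb in LIMA1 shRNA cells and 9874 in control shRNA cells. CALR followed at 6856 per kb in LIMA1 shRNA cells and 6523 per kb in control shRNA cells, and then HSPA5, PDIA4, XBP1 and HYOU1 in that order in all 4 libraries. With nutlin-3a CALR stood above HSP90B1, at 8259 against 8033 per kb in LIMA1 shRNA cells and 7309 against 6546 in control shRNA cells. The pairs HERPUD1 and SDF2L1, and DNAJC3 and DNAJB9, also changed places between libraries.

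**Figure D2:**
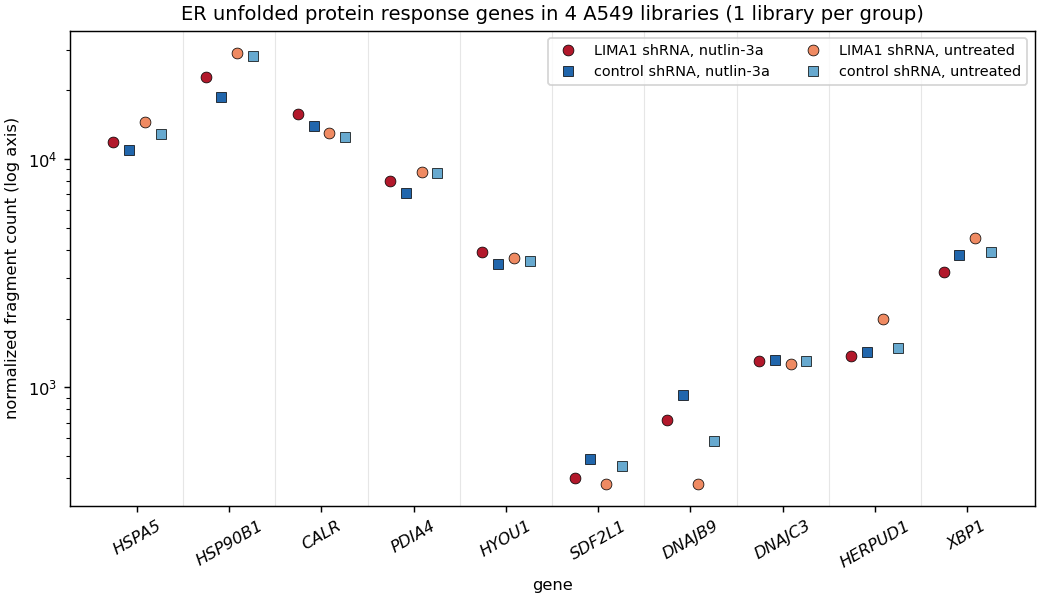
Normalized fragment count of each of the 10 genes (log axis, not divided by length) in the 4 libraries, 1 point per library. DNAJB9 spans the widest range, 379 to 924, and DNAJC3 the narrowest, 1269 to 1321.

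In untreated cells 9 of the 10 genes lay within 0.5 of level between the lines. Across the 10 genes the median difference, LIMA1 shRNA minus control shRNA, was 0.043, against 0.024 for all 12742 measured genes, and the sign of the 10-gene median turned under equal-total and upper-quartile scaling. No gene of the 10 was higher or lower by at least 1, where 1.04% of all genes were higher and 2.05% lower. At a difference of 0.5, 0 of 10 were higher and 1, DNAJB9, was lower, beside 4.96% and 7.71% of all genes. Among the 10005 genes with a mean of at least 150, which all 10 exceeded, 0.42% were higher and 0.68% lower by 1, and 3.1% and 4.16% by 0.5. Of the 10 genes, 7 lay above 0, as did 54.4% of all genes. Counting intervals lay above 0 for 5 genes and below 0 for 2, beside 25.8% and 19.6% of all measured genes, and 29.8% and 19.7% of those with a mean of at least 150. Such intervals narrow with abundance, so small differences of abundant genes can leave out 0. In bulk RNA of a culture, fewer expressing cells and less RNA per cell cannot be told apart.

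HSPA5 encodes BiP, the ER member of the HSP70 family and the chaperone that holds the sensors inactive. It stood at 14444 normalized counts in untreated LIMA1 shRNA cells and 12833 in untreated control shRNA cells, a difference of 0.17 (0.14 to 0.20). With nutlin-3a it was at 11832 in LIMA1 shRNA cells and 10953 in control shRNA cells, a difference of 0.11 (0.073 to 0.15) that was 0.062 under equal-total scaling. HSPA5 was thus higher in LIMA1 shRNA cells in both treatments, by 1.13-fold untreated and 1.08-fold with nutlin-3a on this scale. These differences lay at percentiles 74.4 and 64.2 of measured genes. HSP90B1, which encodes the ER HSP90 protein GRP94, was at 29155 in untreated LIMA1 shRNA and 28221 in untreated control shRNA cells. That difference was 0.047 (0.024 to 0.070) and turned negative under equal-total and upper-quartile scaling (-0.0086 in the second). With nutlin-3a HSP90B1 was at 22957 in LIMA1 shRNA cells and 18709 in control shRNA cells, a difference of 0.30 (0.27 to 0.32).

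CALR encodes calreticulin, a calcium-binding lectin chaperone for glycoproteins. It was at 13048 normalized counts in untreated LIMA1 shRNA and 12413 in untreated control shRNA cells, and at 15717 in LIMA1 shRNA cells and 13908 in control shRNA cells with nutlin-3a. The untreated difference was 0.072 (0.037 to 0.11), which ran from 0.016 under upper-quartile scaling to 0.12 after a correction for length and GC content. The difference with nutlin-3a was 0.18 (0.14 to 0.21). PDIA4, a protein disulfide isomerase, was at 8724 in untreated LIMA1 shRNA and 8667 in untreated control shRNA cells, a difference of 0.0094 (-0.033 to 0.052) whose sign turned under 4 of the scalings tried. With nutlin-3a PDIA4 was at 7986 in LIMA1 shRNA cells and 7069 in control shRNA cells, a difference of 0.18 (0.13 to 0.22). HYOU1, a large HSP70-related exchange factor for BiP, was at 3665 in LIMA1 shRNA cells and 3568 in control shRNA cells untreated, and at 3909.6 in LIMA1 shRNA cells and 3481 in control shRNA cells with nutlin-3a. Its untreated difference was 0.039 (-0.027 to 0.10), which turned negative under equal-total and upper-quartile scaling, and its difference with nutlin-3a was 0.17 (0.10 to 0.23). The 5 abundant chaperones thus lay between 0.0094 and 0.17 in untreated cells and between 0.11 and 0.30 with nutlin-3a. For genes with a mean of at least 150, the lower and upper quartiles were -0.107 and 0.168 untreated. With nutlin-3a these quartiles were -0.105 and 0.179.

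DNAJB9, SDF2L1 and DNAJC3 were the members with an untreated difference below 0, though the interval of DNAJC3 held 0. DNAJB9 encodes ERdj4, a J-domain partner of BiP that helps keep IRE1 inactive. It had 379 normalized counts in untreated LIMA1 shRNA cells and 582 in untreated control shRNA cells, a difference of -0.62 (-0.81 to -0.43), at percentile 5.56 of measured genes. With nutlin-3a it had 723 in LIMA1 shRNA cells and 924 in control shRNA cells, a difference of -0.35 (-0.50 to -0.21). Its untreated difference was the lowest of the 10 genes, and it lay outside the central 90% of genes with a mean of at least 150 (-0.45 to 0.42). SDF2L1, an ER-lumen partner of BiP and its J-domain proteins, had 377 in untreated LIMA1 shRNA and 454 in untreated control shRNA cells, and 399 in LIMA1 shRNA cells and 485 in control shRNA cells with nutlin-3a. Its untreated difference was -0.27 (-0.47 to -0.072), and -0.17 after the length and GC correction, and its difference with nutlin-3a was -0.28 (-0.48 to -0.086). DNAJC3, the J-domain protein p58IPK, known as an inhibitor of PERK, was at 1269 in LIMA1 shRNA cells and 1304 in control shRNA cells untreated and at 1310.0 in LIMA1 shRNA cells and 1321 in control shRNA cells with nutlin-3a. Both DNAJC3 differences, -0.039 and -0.012, had counting intervals that held 0.

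HERPUD1 and XBP1 had line differences that lay furthest apart between the treatments, though this was not tested. HERPUD1, a membrane factor of ER-associated degradation, had 1994 normalized counts in untreated LIMA1 shRNA cells and 1482 in untreated control shRNA cells. Its difference of 0.43 (0.33 to 0.52) was the highest of the 10, at percentile 93.2 of measured genes. With nutlin-3a it had 1373 in LIMA1 shRNA cells and 1424 in control shRNA cells, a difference of -0.053 (-0.16 to 0.057). XBP1 had 4514 in untreated LIMA1 shRNA and 3920.3 in untreated control shRNA cells, and 3203 in LIMA1 shRNA cells and 3795 in control shRNA cells with nutlin-3a. Its differences were 0.20 (0.14 to 0.26) and -0.24 (-0.31 to -0.18), on opposite sides of 0. The files hold 1 value per gene, so the spliced share of XBP1 mRNA was not analysed here. Both genes were highest in the untreated LIMA1 shRNA library, on which their untreated difference and their nutlin-3a difference in that line both rest.

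**Figure D3:**
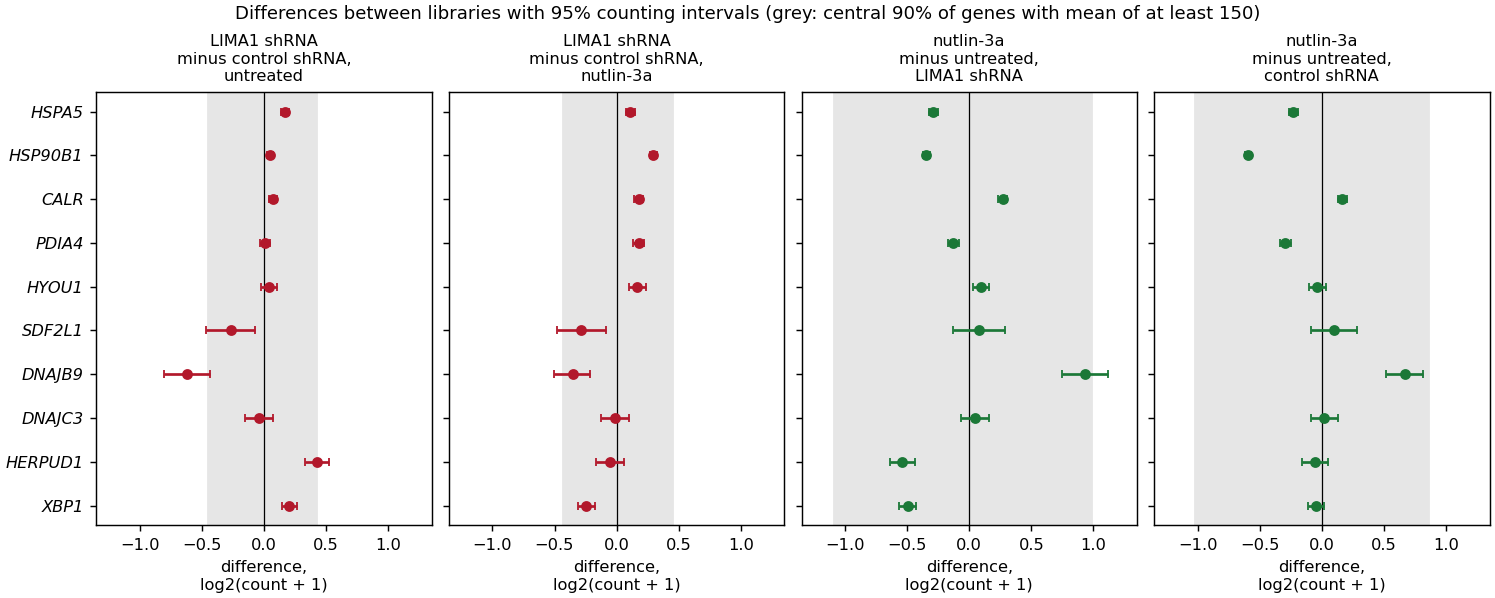
Differences on the log2(normalized count + 1) scale for the 10 genes in 4 comparisons (points), with 95% counting intervals (bars) and, in grey, the central 90% of genes with a mean of at least 150. In untreated cells DNAJB9 at -0.62 lies below the band and HERPUD1 at 0.43 just above its upper edge of 0.42, and the other 8 genes lie inside it.

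With nutlin-3a the line difference had a median of 0.049 over the 10 genes, against 0.028 for all measured genes, and 5 of 10 lay above 0 (54.6% of all genes). None of the 10 was higher or lower by at least 1 (1.26% and 1.94% of all genes), or by at least 0.5 (5.81% and 6.74%). With a mean of at least 150 the shares of all genes were 0.59% higher and 0.78% lower by 1, and 3.76% and 3.83% by 0.5. The 5 genes above 0 were the 5 abundant chaperones, and the 5 below were DNAJB9, SDF2L1, XBP1, HERPUD1 and DNAJC3. The untreated and nutlin-3a line differences share no library, but both compare the same cell lines.

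Most of the 10 genes with nutlin-3a lay within 0.5 of untreated cells. In LIMA1 shRNA cells the median difference, nutlin-3a minus untreated, was -0.041 (-0.022 for all measured genes), and in control shRNA cells it was -0.041 (-0.017), both positive under upper-quartile scaling and the second also without the trend in length and GC content. No gene of the 10 reached a difference of 1 in either line. In LIMA1 shRNA cells 7.29% of all genes were higher and 6.08% lower by that size, and in control shRNA cells 5.54% and 5.64%. By at least 0.5, 1 of 10 was higher and 1 lower in LIMA1 shRNA cells (18.4% and 17.9% of all genes), and likewise in control shRNA cells (16.3% and 16%). With a mean of at least 150 the shares in LIMA1 shRNA cells were 4.82% higher and 5.73% lower by 1, and 14.5% and 17.6% by 0.5. In control shRNA cells they were 3.64% and 5.18% by 1, and 12.3% and 15.4% by 0.5.

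DNAJB9 was the gene of the 10 that was higher by at least 0.5 in both lines. It was at 723 normalized counts with nutlin-3a against 379 untreated in LIMA1 shRNA cells, a difference of 0.93 (0.75 to 1.12), and at 924 against 582 in control shRNA cells, a difference of 0.67 (0.52 to 0.82). The first of these reached 1.13 after a correction for length and GC content, and 1.01 under upper-quartile scaling. HSP90B1 was lower in both lines, at -0.34 (-0.37 to -0.32) in LIMA1 shRNA cells and -0.59 (-0.62 to -0.57) in control shRNA cells, and the length and GC correction left -0.19 in LIMA1 shRNA cells and -0.47 in control shRNA cells. HSPA5 was at -0.29 in LIMA1 shRNA cells and -0.23 in control shRNA cells, and PDIA4 at -0.13 in LIMA1 shRNA cells (-0.051 under upper-quartile scaling) and -0.29 in control shRNA cells. CALR was higher, by 0.27 (0.23 to 0.30) in LIMA1 shRNA cells and 0.16 (0.13 to 0.20) in control shRNA cells. HYOU1 was at 0.093 (0.027 to 0.16) in LIMA1 shRNA cells, and 0.027 after the length and GC correction, and at -0.035 (-0.10 to 0.031) in control shRNA cells, where its sign turned under upper-quartile scaling. Of the 5 abundant chaperones, CALR was thus above 0 and HSPA5, HSP90B1 and PDIA4 below 0 in both lines, and HYOU1 differed in sign between the lines.

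HERPUD1 and XBP1 were lower with nutlin-3a in LIMA1 shRNA cells, whereas in control shRNA cells both intervals held 0 and both signs turned under upper-quartile scaling and the length and GC correction. HERPUD1 was at -0.54 (-0.64 to -0.44) in LIMA1 shRNA and -0.057 (-0.16 to 0.047) in control shRNA cells. XBP1 was at -0.49 (-0.56 to -0.43) in LIMA1 shRNA and -0.047 (-0.11 to 0.017) in control shRNA cells. The response in LIMA1 shRNA minus that in control shRNA cells was -0.48 (-0.63 to -0.34) for HERPUD1 and -0.45 (-0.54 to -0.36) for XBP1. These lay at percentiles 4.29 and 4.91 of measured genes. At the other end were DNAJB9 at 0.26 (0.029 to 0.49), HSP90B1 at 0.25 (0.21 to 0.28), PDIA4 at 0.17 (0.10 to 0.23), HYOU1 at 0.13 (0.035 to 0.22) and CALR at 0.10 (0.056 to 0.15). Over the 10 genes the median was 0.066, with 6 above 0 (52% of all genes), and none reached 0.5 (5.17% of all genes higher, 4.05% lower) or 1 (1.27% and 0.816%). With a mean of at least 150 the shares were 1.95% higher and 1.71% lower by 0.5, and 0.29% in either direction by 1.

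**Figure D4:**
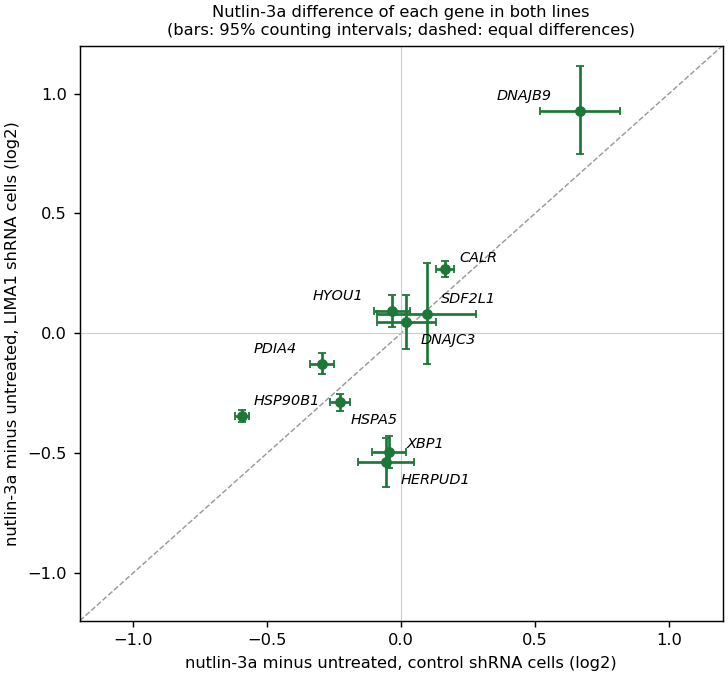
Difference with nutlin-3a (log2 scale) in LIMA1 shRNA cells against that in control shRNA cells for the 10 genes, with 95% counting intervals as bars and a dashed line of equal differences. DNAJB9 stands alone at the upper right, and HERPUD1 and XBP1 lie below the line with control shRNA differences of -0.057 and -0.047.

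Genes that share the promoter element were described in the same way, as a list formed by sequence after the values of the 10 genes were seen. Beside the 7 members, 28 genes in the files had a window with ERSE or ERSE-II, and 21 of them were measured. In untreated cells their median line difference was -0.0046, with 10 of 21 above 0, and 0 of 21 reached 0.5 in either direction. Of all measured genes, 54.4% lay above 0, and 4.96% were higher and 7.71% lower by at least 0.5. The range ran from -0.44 for FICD, which modifies BiP, to 0.30 for the transcription factor ZNF143. The lectin chaperone CANX was at 0.21, the disulfide isomerase PDIA6 at -0.035, SERP1 at -0.096 and the ER-resident CRELD2 at -0.34. The 7 members with an element had a median of 0.072 and the 3 without one -0.039. FICD, chosen after its values were seen, was also higher with nutlin-3a, by 0.77 in LIMA1 shRNA cells and 0.64 in control shRNA cells.

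Other lists of ER proteostasis genes had untreated medians near that of all genes. Of all measured genes, 4.96% were higher and 7.71% lower by at least 0.5 in that comparison. In ER folding and redox, 26 of 26 genes were measured, with a median line difference of 0.010 and 0 higher and 1 lower by at least 0.5. UGGT1, the glucosyltransferase that senses misfolded glycoproteins, was at 0.48 and the oxidase ERO1L at 0.28, and FKBP14 at -0.58 and TXNDC11, whose values were not all whole fragments, at -0.43. UGGT1 was at 0.61 and FKBP14 at -0.91 with nutlin-3a. In ER-associated degradation, 24 of 25 genes were measured, with a median of 0.032 and 1 gene on either side. The highest were the deglycosylase NGLY1 (0.57) and the ligase adaptor SEL1L (0.25), and the lowest were the lectin EDEM2 (-0.85) and the conjugating enzyme UBE2G2 (-0.28). EDEM2 was at -0.67 with nutlin-3a. In translocation, glycosylation and ER export, 32 of 32 genes were measured, with a median of 0.0047 and 0 higher and 1 lower. ARFGAP3 (0.26) and the oligosaccharyltransferase subunit STT3B (0.23) were highest, and the KDEL receptor KDELR3 (-0.73) and the signal peptidase subunit SEC11A (-0.37) lowest. KDELR3 was at -0.76 with nutlin-3a.

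The 10 sensor and transducer genes had a median of 0.066, with 1 of 10 higher and 0 lower by at least 0.5 (4.96% and 7.71% of all genes). CREB3L1, an ATF6-like factor, was at 98.95 normalized counts in untreated LIMA1 shRNA and 45.2 in untreated control shRNA cells, a difference of 1.11 (0.62 to 1.66). ERN1 was at 332 in untreated LIMA1 shRNA cells and 237 in untreated control shRNA cells, a difference of 0.49 (0.25 to 0.73), and ATF6 at 0.075. EIF2AK3, whose values were not all whole fragments, was at -0.34 and CREB3L4 at -0.15.

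Most genes of the list named here the PERK-ATF4 arm were higher in untreated LIMA1 shRNA cells. Whether PERK raised them was not tested. This list of 20 genes was drawn up with earlier results of these libraries known, so its direction is no independent evidence. In untreated cells its median line difference was 0.89, with 9 of 20 higher by at least 1, 17 of 20 higher by at least 0.5 and 0 lower. The same sizes were met by 0 and 0 of the 10 chaperone-arm genes and by 1.04% and 4.96% of all genes. The glutathione-degrading CHAC1 (3.96) and the secreted glycoprotein gene STC2 (2.77) were highest, and the transporter subunit SLC3A2 (-0.067) and CEBPB (-0.0033) lowest. ATF4 itself was at 7783 normalized counts in untreated LIMA1 shRNA and 4580.1 in untreated control shRNA cells. With nutlin-3a the list had a median line difference of 0.26, with 2 of 20 higher by at least 1 (1.26% of all genes). Nutlin-3a minus untreated, 9 of 20 were lower and 1 higher by at least 1 in LIMA1 shRNA cells (6.08% and 7.29% of all genes). In control shRNA cells 3 were lower and 2 higher (5.64% and 5.54%). The untreated line difference and the nutlin-3a difference in LIMA1 shRNA cells both rest on the untreated LIMA1 shRNA library. They are therefore not independent of each other. CHAC1, for example, was at 602 normalized counts in that library and 37.7 in untreated control shRNA cells. With nutlin-3a it was at 85.8 in LIMA1 shRNA cells and 56.6 in control shRNA cells. Cytosolic heat shock genes had a median of 0.027 untreated, with 0 of 13 higher and 2 lower by at least 0.5 (4.96% and 7.71% of all genes). HSPB1 (0.46) and HSPE1 (0.16) were highest, and HSPA1A (-0.70) and HSPA1B (-0.50), near-identical copies whose reads may be split by the counting, were lowest.

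**Figure D5:**
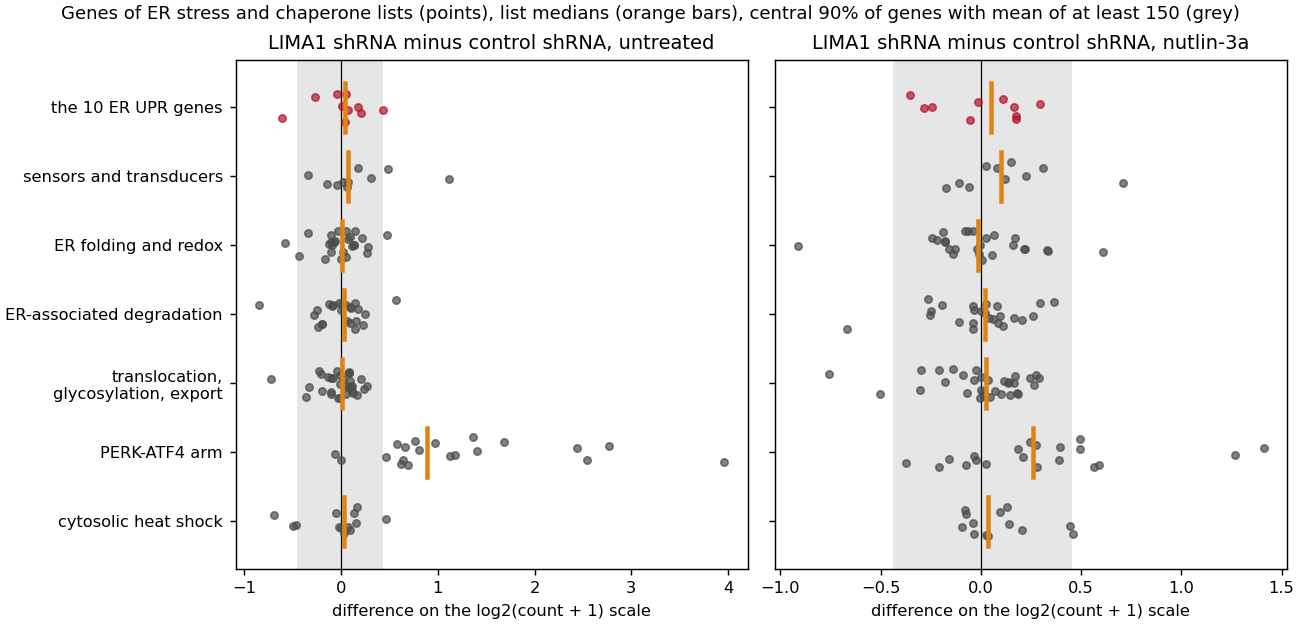
Line difference (log2 scale) of each measured gene in the 10-gene set (red) and in 6 other lists (grey points), untreated at left and with nutlin-3a at right, with list medians as orange bars and the central 90% of genes with a mean of at least 150 as a grey band. In untreated cells the PERK-ATF4 arm has its median at 0.89, and the other 6 medians lie between 0.0047 and 0.066.

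Profiles over the 4 libraries were compared by the root mean square distance between centred log2 values, among 10005 genes with a mean of at least 150. Nearest to HSPA5 were ZNF777, MAPRE1, BCL7B, PSMC5 and WIZ, at distances of 0.0065 to 0.013, and 1518 genes lay within 0.1. Nearest to the mean profile of the 10 genes were ZADH2, GTF3A, TM9SF2, KAT6B and AGGF1, at 0.0068 to 0.0099, with 1886 genes within 0.1. With 4 libraries and a nearly flat profile, closeness of this kind was common.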

How the data were processed

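RNA-seq of 4 A549 libraries was read from the deposited files, 1 per group. Per the submitters' processing notes, the authors used Cuffnorm 2.2.1, Bowtie2 2.0.12, bcl2fastq 1.8.3 and the hg19 build, in roles the notes do not state. Which annotation they counted against is not stated. As its values show, the deposited signal per gene is a fragment count scaled by 1 factor for each library, with no division by length. Between 85.5% and 86.3% of values from 0.5 to 1000 fragments lay within 0.1 of a whole number. No count test was run, because each group holds 1 library. The value of 1 fragment (0.943 to 1.07) gave the fragments behind each interval; reads carry no molecular identifiers. Intervals of a difference are exact binomial ones. The interval of a response difference is a normal approximation on the log scale.

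The analysis used a pseudocount of 1, a mean of at least 30 and sizes of 1 and 0.5 on the log2 scale, for 5 comparisons. Members and lists were chosen with earlier results of these data known. Genes named are the 10 members, LIMA1 and CDKN1A as checks of the labels (MDM2, also planned, was at 33982 normalized counts with nutlin-3a against 1857 untreated in LIMA1 shRNA cells), the 2 highest and 2 lowest of each list by untreated line difference, and the 5 nearest profiles. ATF4, ATF6, genes with a promoter element and single cell type markers were named outside this rule, after their values were seen. Of 126 genes in the 6 other lists, 125 were measured, 5 of them under older symbols. Promoters are RefSeq (GRCh38.p14) and lengths GENCODE 29, both on another build than the files. Calls and intervals were tested on simulated counts that held counting error only. That check does not cover variation between replicate libraries. Python 3.11.15, numpy 2.4.6, pandas 2.3.3, scipy 1.17.1 and matplotlib 3.10.9 were used.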

Additional observations from a re-analysis of the deposited data

Results flagged for a closer look

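These results were flagged because a difference pointed one way in one line or treatment and the opposite way in the other. With 1 library a group, none of these opposite directions was tested. XBP1 was at -0.24 in nutlin-3a-treated and 0.20 in untreated cells, LIMA1 shRNA minus control shRNA, with both counting intervals off 0. HERPUD1 was at -0.053 with nutlin-3a and 0.43 untreated, the first with a counting interval that held 0. The ER folding and redox list had line-difference medians of -0.015 with nutlin-3a and 0.010 untreated. Upper-quartile scaling shifted the median of all genes by -0.038 and -0.055 in these comparisons, more than the size of either list median.

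With nutlin-3a against untreated cells, HYOU1 was at 0.093 in LIMA1 shRNA cells and -0.035 in control shRNA cells, the second with a counting interval that held 0. The PERK-ATF4 arm had medians of -0.80 in LIMA1 shRNA cells and 0.13 in control shRNA cells. The ER-associated degradation list had medians of 0.0090 in LIMA1 shRNA cells and -0.0022 in control shRNA cells. Upper-quartile scaling shifted the median of all genes by 0.076 and 0.058 in these comparisons. These shifts exceeded the size of both ER-associated degradation medians, but of neither PERK-ATF4 arm median.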

How the results depend on the processing

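No paired analysis was possible because each group holds 1 library. Depth limits DNAJB9 and SDF2L1 most, at 372 to 931 fragments a library. Of 400 values of single genes under the 8 alternatives that can change them, 362 stayed within their counting interval, and no difference of at least 0.5 changed sign. Intervals are wide for genes with few fragments, and the alternatives shifted the median of all genes by at most 0.076. Neither count is therefore a test of robustness. The median over the 10 genes ran from -0.013 to 0.050 for the untreated line difference (below 0 with equal totals or upper quartiles), 0.00024 to 0.049 with nutlin-3a, -0.056 to 0.036 for nutlin-3a in LIMA1 shRNA cells and -0.041 to 0.017 in control shRNA cells, and 0.060 to 0.084 for the response difference. For nutlin-3a in LIMA1 shRNA cells, upper-quartile scaling and removal of the length and GC trend each put 1 gene (DNAJB9) past 1 and left 0 lower by 0.5. The trend removal also left 0 lower by 0.5 in control shRNA cells. A size of 0.5 in place of 1 gave 1 lower gene for the untreated line difference and 1 higher and 1 lower for nutlin-3a in either line. For the 20 genes of the PERK-ATF4 arm it gave 17 higher untreated (9 at a size of 1), beside 4.96% of all genes. With nutlin-3a it gave 4 higher (2), beside 5.81%. For nutlin-3a in LIMA1 shRNA cells it gave 2 higher and 12 lower (1 and 9), beside 18.4% and 17.9% of all genes. In control shRNA cells it gave 5 higher and 5 lower (2 and 3), beside 16.3% and 16%. For the response difference it gave 13 lower (7), beside 4.05%. The untreated line difference, the nutlin-3a difference in LIMA1 shRNA cells and the response difference all use the untreated LIMA1 shRNA library. The cause of these moves was not tested.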
